A study of Mus musculus with 4 samples.

Results

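The 10 genes described here encode the corepressors through which ZEB2 is known to act: the C-terminal binding proteins (Ctbp1 and Ctbp2) and the core of the nucleosome remodelling and deacetylase complex, NuRD (Chd4, Mta1, Mta2, Mta3, Hdac1, Hdac2, Rbbp4 and Rbbp7). They were listed by gene symbol, and all 10 were found among the 24831 genes listed for each library. ZEB2 is a zinc finger transcription factor that represses epithelial genes. It holds no enzyme of its own: short peptide motifs in the protein bind CtBP, and a motif at its N-terminus binds NuRD, which slides nucleosomes and removes acetyl groups from histones. CtBP in turn assembles histone demethylases, methyltransferases and deacetylases, and both complexes serve many other transcription factors in the early embryo. The question asked of these genes was whether the partners of ZEB2 were expressed in somitic gastruloids and whether their mRNA held its level when the ZEB2 protein was degraded.

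Somitic gastruloids are aggregates of mouse embryonic stem cells that elongate in culture and form presomitic tissue and somites. All 4 libraries came from the same E14 triple reporter line, with Zeb2-HA-FKBP12F36V, a degron and epitope tag on the endogenous gene; whether it is a single clone is not stated. The dTAG-13 group (2 libraries, replicates 1 and 2) received 100 nM dTAG-13, a small molecule that directs the degron-tagged protein to the proteasome, at 72 h and again at 96 h. The untreated group (2 libraries, also numbered 1 and 2) did not, and the growth protocol gives DMSO as the control; both groups began as 300 sorted cells per well, had 3 μM CHIR99021, an activator of WNT signalling, at 48 h, and were moved into 10% Matrigel at 96 h.

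Reads counted in genes numbered 12230908 and 11491330 in the dTAG-13 libraries and 12716172 and 11566746 in the untreated libraries, and 13602 genes had enough counts to be tested. The share of reads falling outside genes ran from 24.1% to 35.7%. Marker lists showed mixed tissue in every library: markers of somites and presomitic mesoderm summed to 149.8 and 90.7 CPM (reads of a gene scaled to a common library size) with dTAG-13, against 294 and 168 CPM untreated, and 8 of 9 were lower in both replicate numbers. Those of the neural tube summed to 144 and 209.6 CPM with dTAG-13, against 203 and 391 CPM untreated, and all 7 were lower with dTAG-13 in both replicate numbers. Epithelial markers summed to 870.5 and 1588 CPM with dTAG-13, against 490.2 and 664 CPM untreated, and all 6 were higher in both numbers. All 4 pluripotency markers were also higher in both, at 213 and 353 CPM with dTAG-13, against 178 and 241 CPM untreated. Cell cycle genes, with which chromatin factors often vary, summed to 4512 and 3956 CPM with dTAG-13, against 4156 and 4407 CPM untreated, so these groups overlapped. The part of tissue composition in the values that follow was not tested, and in bulk RNA fewer cells of a type and less RNA per cell cannot be told apart. The labels do not state whether replicates are separate cultures, and p-values here measure only how these libraries vary, which may be technical.

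The CtBP and NuRD genes were expressed in every library and differed little between the groups. Their counts ran from 711 (Mta3, untreated replicate 2) to 14093 (Chd4, dTAG-13 replicate 1), so that counting error alone was 0.842% to 3.75% of a value. Their summed level was 3780 and 3653 CPM with dTAG-13, against 3382 and 3821 CPM untreated, and these groups overlapped. In edgeR's quasi-likelihood test 0 of the 10 passed an adjusted p of 0.05 and 0 had an unadjusted p under 0.05; over all 13602 genes 0 passed (0%) and 473 had an unadjusted p under 0.05 (3.48%). DESeq2 also called 0 of the 10, and 40 of all genes (0.294%). The members' log2 fold changes, dTAG-13 over untreated, ran from -0.093 to 0.32 with a median of 0.019, beside a median of 0.0037 over all genes tested. Of the 10, 5 were above 0 and 5 below it.

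A p above the threshold does not show that a gene held its level, so the 95% interval of each fold change was also read. All 10 intervals lay within 2-fold in either direction, the lowest bound being 0.701-fold (Ctbp2) and the highest 1.71-fold (Mta3). Of all genes tested, 68.6% had such an interval, and of the 3890 genes at least as abundant in CPM as Mta3, the lowest member, 95.3% did. The members' count is therefore near that of other genes of their abundance. The 4 libraries of a member lay close together: the highest was under 1.5-fold the lowest for 9 of the 10, as it was for 64.0% of all genes and 89.5% of those at least as abundant as the lowest member, and the exception was Mta3 at 1.51-fold.

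**Figure D1:**
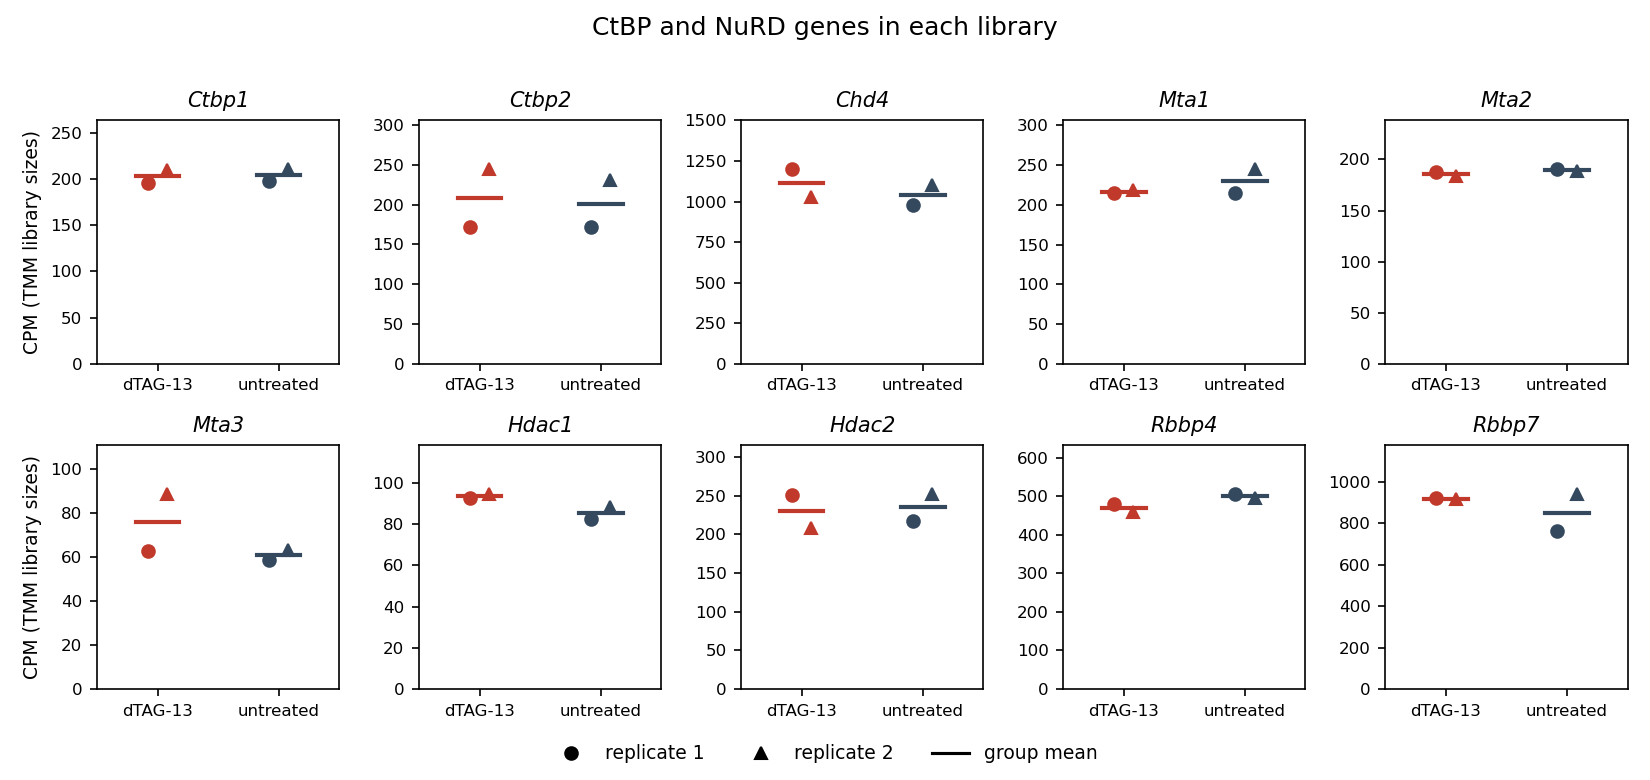
Level of each of the 10 genes in CPM (y axis, from 0) in the dTAG-13 libraries (left, red) and the untreated libraries (right, dark). Circles are replicate 1, triangles replicate 2 and bars group means of 2 libraries. The groups overlap for 7 genes, and both Ctbp2 triangles (245 and 231 CPM) lie above both circles (172 and 171 CPM).

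**Figure D2:**
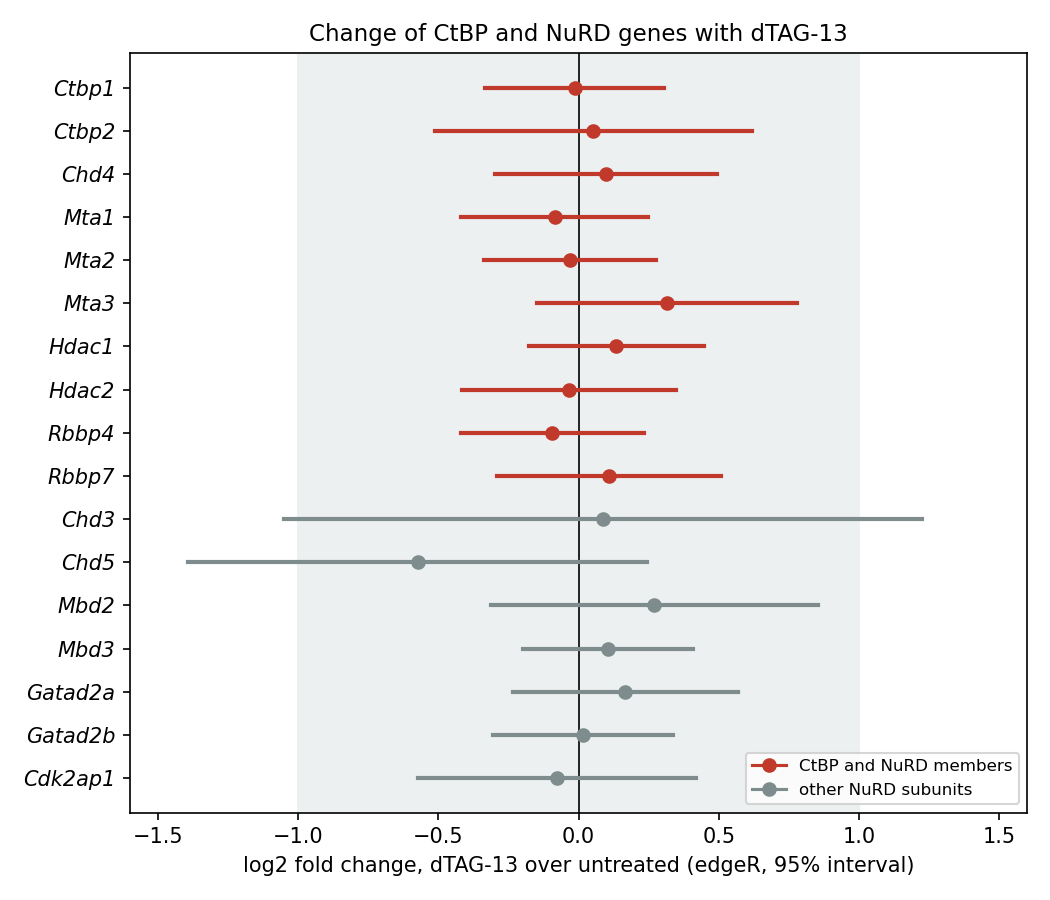
Log2 fold change of dTAG-13 over untreated (x axis) with its 95% interval from edgeR, for the 10 members (red) and the 7 other NuRD subunits tested (grey). The shaded band marks changes within 2-fold. All 10 red intervals lie inside it, and those of Chd3 and Chd5 reach beyond it.

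Ctbp1 (chromosome 5, 33247723 to 33275004 in GRCm38.p6) and Ctbp2 (chromosome 7, 132986998 to 133124009) encode dehydrogenase-like proteins that dimerise and bridge DNA-binding repressors to histone-modifying enzymes. Ctbp1 had 195 and 210.1 CPM in the dTAG-13 libraries and 198 and 211 CPM in the untreated libraries. The replicates of one number were nearly equal across the groups, and the groups overlapped. Its log2 fold change was -0.014 ± 0.13 (SE), with a 95% interval of 0.794-fold to 1.24-fold (adjusted p = 1.00 in edgeR). Ctbp2 had 172 and 245 CPM with dTAG-13, against 171 and 231 CPM untreated, so the replicate 2 library was the higher one in both groups and the groups overlapped. Its log2 fold change was 0.052 ± 0.23 (SE), and its interval, 0.701-fold to 1.53-fold, was wider than that of Ctbp1. Ctbp2 also yields RIBEYE, a synaptic ribbon protein, from an alternative start, and counts per gene do not separate that form. Of the 50-base stretches of its protein-coding transcripts, 4.82% also occur in transcripts of Fgfr2, whose exons overlap it on the same strand. Here and below, such stretches of a member are those of its protein-coding transcripts only.

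Chd4 (chromosome 6, 125095980 to 125130591), the ATPase that gives NuRD its remodelling activity, had the highest counts of the 10. Its level was 1202 and 1025 CPM with dTAG-13, against 980.2 and 1100.4 CPM untreated. The groups overlapped, and the numbers went opposite ways: the libraries numbered 1 gave a log2 difference of 0.29 for dTAG-13 over untreated, and those numbered 2 gave -0.10. The fold change over all libraries was 1.07, with an interval of 0.813-fold to 1.41-fold (adjusted p = 1.00 in edgeR). ZEB proteins bind E-boxes, spelled CACCTG or, on the other strand, CAGGTG. RefSeq promoters (GRCm38.p6) were given for 8 of the 10 members, and 1 of these 8 genes, Chd4, held this motif in the 250 bases before a start. Of all 27025 genes with a promoter, 19.4% held it in those bases. The site is shown because it is the only such match among the members, with the E-box in capitals; it lies 31 bases before a start site, on the plus strand at chr6:125095938-125095967.
Chd4 promoter: tgggcggttgccCAGGTGacgcgcgcgcgc
A match of these letters is a description of the sequence, and binding was not measured here. The other promoters had no such match in their window, which says nothing about ZEB2 at those genes.

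The metastasis-associated proteins MTA1, MTA2 and MTA3 are alternative scaffolds that hold the deacetylases and the histone-binding subunits of NuRD together. Mta1 (chromosome 12, 113098248 to 113137206) had 215 and 218 CPM with dTAG-13, against 214 and 245 CPM untreated, and Mta2 (chromosome 19, 8941920 to 8952300) had 188 and 184 CPM with dTAG-13, against 191 and 189 CPM untreated. Both Mta2 libraries of the dTAG-13 group lay below both untreated ones, with a fold change of 0.979. The interval of Mta2, 0.792-fold to 1.21-fold, bounds its change in either direction. Mta3 (chromosome 17, 83706163 to 83823715), known in breast epithelial cells as part of a NuRD form that represses Snail, gave the largest fold change of the 10. It had 62.9 and 88.7 CPM with dTAG-13, against 58.6 and 63.3 CPM untreated. A single library, dTAG-13 replicate 2, stood apart, and the groups overlapped because dTAG-13 replicate 1 lay just under untreated replicate 2. The group means were 75.8 ± 18.3 CPM with dTAG-13 and 60.9 ± 3.29 CPM untreated (SD, n = 2 each). The fitted log2 difference was 0.32 ± 0.19 (SE), with an unadjusted p of 0.148 and an adjusted p of 1.00 in edgeR. Without dTAG-13 replicate 2 it was 0.026, and without dTAG-13 replicate 1 it was 0.54.

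HDAC1 and HDAC2 are the lysine deacetylases of NuRD, shared with the SIN3 and CoREST complexes. Hdac1 (chromosome 4, 129516104 to 129542646) had 92.6 and 94.9 CPM with dTAG-13, against 82.5 and 88.4 CPM untreated. It was the only member whose dTAG-13 libraries both lay above the untreated ones, a log2 fold change of 0.13 ± 0.13 that did not pass (unadjusted p = 0.340, adjusted p = 1.00 in edgeR). Hdac2 (chromosome 10, 36974297 to 37001889) had 250.2 and 209 CPM with dTAG-13, against 217 and 252 CPM untreated, so replicate 1 was the higher library with dTAG-13 and replicate 2 the higher one untreated. The log2 differences within numbers, 0.20 and -0.27, were opposite in sign. The level of Hdac1 carries a limit that the other members do not share to this degree. Of the 50-base stretches of its protein-coding transcripts, 58.7% also stand in transcripts of copies elsewhere in the annotation, Gm10093 with the most. How reads that map to more than 1 place were counted is not known here. Hdac2 shared 0% with other genes.

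RBBP4 and RBBP7 are WD40 proteins that bind histones H3 and H4 and also belong to the SIN3, Polycomb and chromatin assembly complexes. Rbbp4 (chromosome 4, 129307100 to 129335370) had 480.4 and 459.9 CPM with dTAG-13, against 507 and 496 CPM untreated. Both dTAG-13 libraries were below both untreated ones, a difference of -0.093 ± 0.14 on the log2 scale (fold change 0.937, interval 0.747-fold to 1.18-fold, adjusted p = 1.00 in edgeR). Rbbp7 (chromosome X, 162760372 to 162779090) had 921 and 918 CPM with dTAG-13, against 762 and 944 CPM untreated. Its dTAG-13 libraries were nearly equal and lay between the untreated ones, and without untreated replicate 1 its log2 fold change was -0.052, against 0.11 with all libraries. Exons of Rbbp4 overlap Sync and Gm26722 on the opposite strand, which takes in 31.8% of its 50-base stretches, and Rbbp7 overlaps Txlng on the opposite strand, over 4.23% of its stretches. A further limit for Rbbp7 is a copy elsewhere, Gm6382, which holds 6.97% of them. Which strand was counted is not known here, so reads of such overlaps cannot be told apart.

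Members whose groups did not overlap were 1 above untreated (Hdac1) and 2 below it (Mta2 and Rbbp4), where 14.4% of all genes lay wholly above and 11.9% wholly below. The difference had the same sign in both replicate numbers for 6 of the 10, 3 higher (Ctbp2, Mta3 and Hdac1) and 3 lower (Ctbp1, Mta2 and Rbbp4), and for 51.6% of all genes. These shares are near those of all genes.

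Between genes, levels were compared as CPM per kilobase of exon. Rbbp7 stood highest, at 262 to 324 CPM per kilobase over the 4 libraries, and Chd4 next, at 122 to 149.9. Mta1 followed at 69.0 to 79.1. Rbbp4 (52.6 to 58.0), Hdac2 (46.6 to 56.4), Mta2 (45.0 to 46.7) and Ctbp1 (43.6 to 47.1) came next, each overlapping its neighbour in this order. Ctbp2 had 27.6 to 39.4 CPM per kilobase, Hdac1 23.9 to 27.5 and Mta3 11.02 to 16.7. None of these ranges overlapped, although Ctbp2 and Hdac1 nearly touched. The place of Hdac1 carries the limit from copies elsewhere given above. All members but Mta3 stood above the 85th percentile of the genes tested on this scale, from 85.2 for Hdac1 to 99.6 for Rbbp7, and Mta3 was at the 68.1st percentile. By coding length in place of exon length the places of Rbbp7, Ctbp2, Hdac1 and Mta3 were the same. Rbbp4 then came 2nd and Chd4 3rd, Hdac2 and Ctbp1 4th and 5th, and Mta1 and Mta2 6th and 7th. Both lengths join all annotated forms of a gene, so any RIBEYE sequence counts in those of Ctbp2 (6220 exon and 3040 coding bases). A length of the CtBP form alone was not tried, so the place of Ctbp2 carries that limit.

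**Figure D3:**
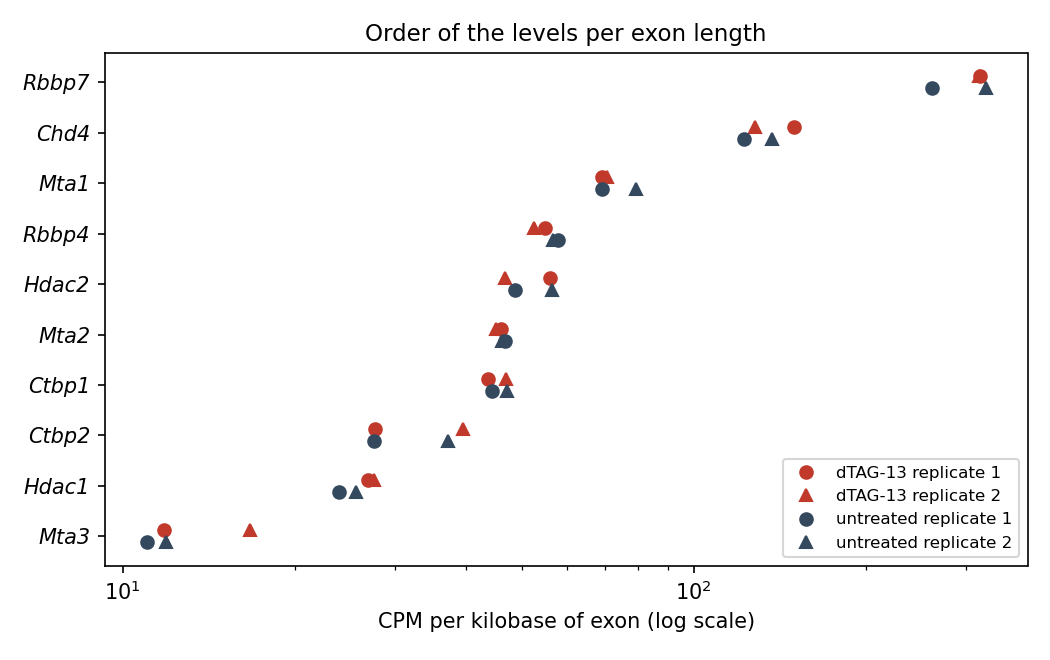
CPM per kilobase of exon (x axis, log scale) of each member in the dTAG-13 libraries (red, upper points) and the untreated libraries (dark, lower points); circles are replicate 1 and triangles replicate 2. Rbbp7 and Chd4 lie above the rest at 262 to 324 and 122 to 149.9, and Mta3 lowest at 11.02 to 16.7.

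The balance of paralogs was read as each gene's share of its family's summed CPM per kilobase. Ctbp1 made up 61.2% and 54.4% of the CtBP pair in the dTAG-13 libraries, against 61.7% and 55.9% in the untreated libraries. Its share was lower in replicate 2 of both groups, and the groups overlapped. The mean Ctbp1 share was 58.3% per exon kilobase, 67.3% per coding kilobase and 50.2% of counts without length. That Ctbp1 was the larger part thus depended on length. The coding length was 3040 bases for Ctbp2 and 1481 for Ctbp1, each over all annotated forms joined. Any RIBEYE sequence in the lengths of Ctbp2 therefore lowers its share per kilobase. Mta1 took 54.5% and 53.3% of the MTA family with dTAG-13, against 54.5% and 57.6% untreated. Its mean share was 55.0% per exon kilobase, 44.3% per coding kilobase and 46.5% of counts without length. Those of Mta2 were 35.2%, 40.1% and 39.2%, so Mta1 was the larger in each, but its majority depended on length. Mta3, the minor scaffold, took 9.31% and 12.6% with dTAG-13, against 8.70% and 8.67% untreated. Hdac2 was the larger part of the deacetylase pair, at 67.5% and 62.9% with dTAG-13, against 67.0% and 68.7% untreated. This share carries the limit given above, as 58.7% of the 50-base stretches of Hdac1 also stand in copies elsewhere. Rbbp7 was 85.2% and 85.7% of the RBBP pair with dTAG-13, against 81.9% and 85.1% untreated, and its share is the more affected by length, with a mean of 84.5% per exon kilobase and 64.5% of counts without length. Among the CHD ATPases of NuRD, Chd4 held 86.3% and 75.6% with dTAG-13, against 84.97% and 77.4% untreated. No test was made of these shares; an exact permutation test of 2 libraries against 2 cannot go below a two-sided p of 0.333.

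**Figure D4:**
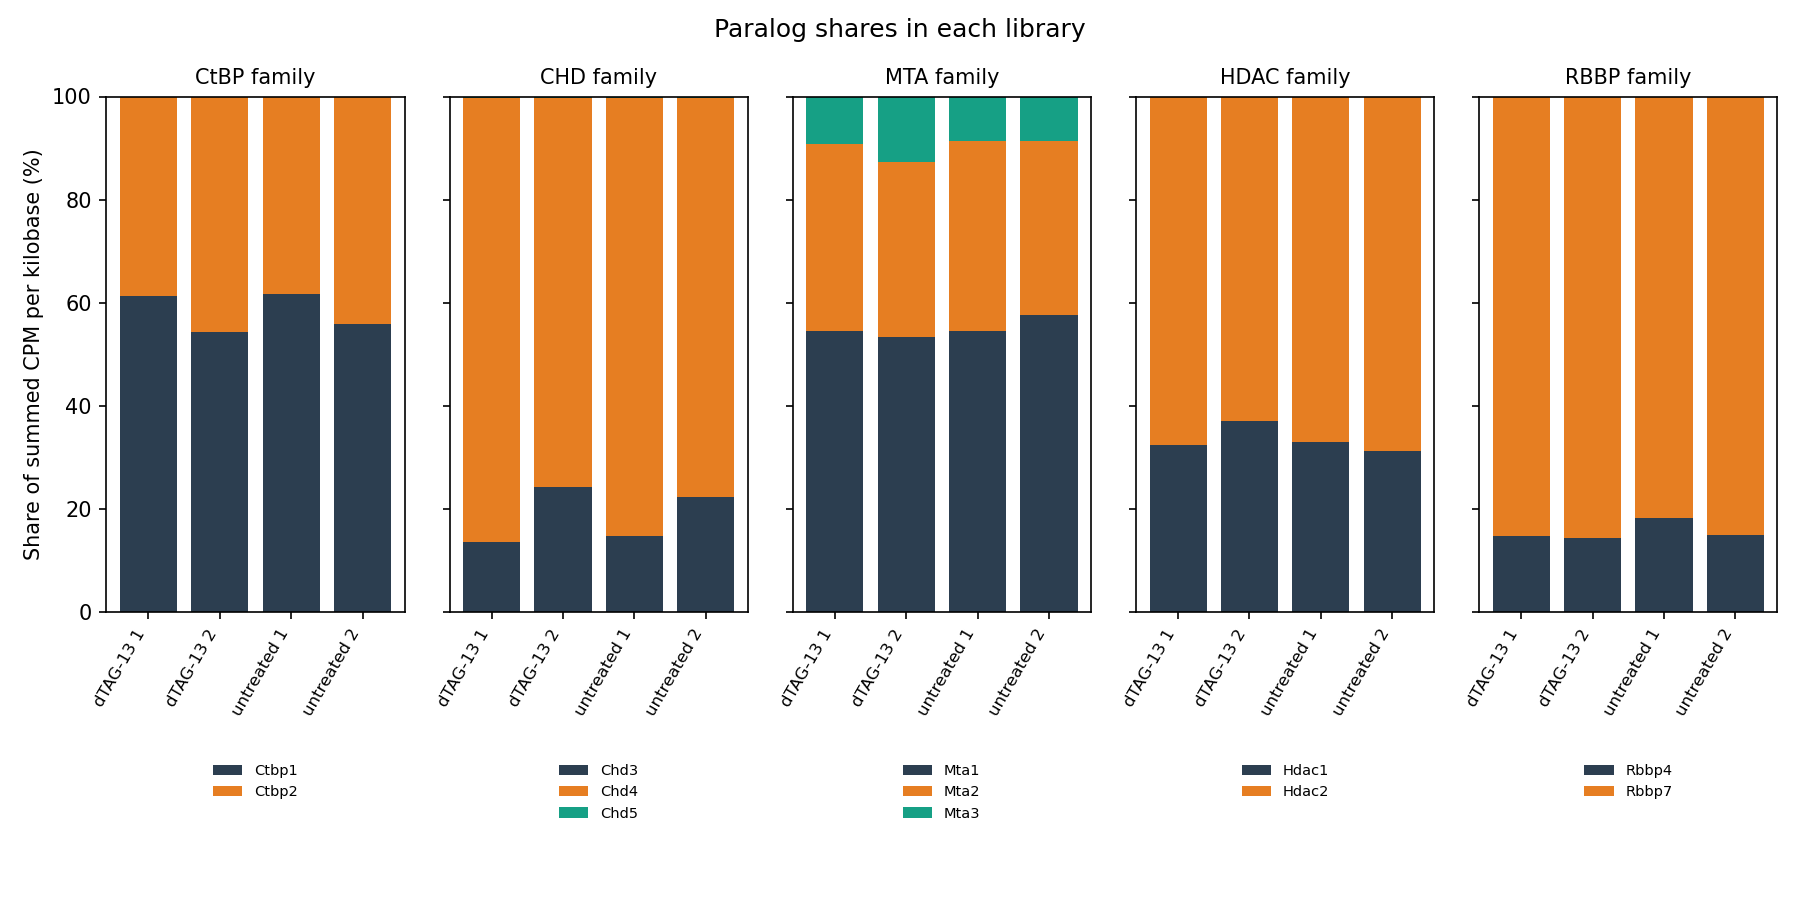
Share of each paralog in its family's summed CPM per kilobase of exon (y axis, percent) in the dTAG-13 libraries (left bars) and the untreated libraries (right bars). The Ctbp1 and Chd4 shares are lower in replicate 2 of both groups (54.4% and 55.9%, 75.6% and 77.4%) than in replicate 1 (61.2% and 61.7%, 86.3% and 84.97%). Chd5, under 1% of its family, is too thin to see.

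Among the members' differences by treatment and by replicate number, that of Ctbp2 between numbers was the only one to pass an adjusted p of 0.05. In a fit with both group and number as terms, Ctbp2 was higher in number 2 by 0.47 ± 0.16 on the log2 scale (adjusted p = 0.0230 in edgeR), in 2 of 2 groups. It was 1 of 10 members called, where 12.8% of all genes tested were (5.27% higher and 7.54% lower in number 2). Both number 2 libraries lay above both number 1 libraries for 4 members and below them for 0, against 23.1% and 24.9% of all genes. With no filter on low counts its adjusted p was 0.0663. Mta3 had a difference of 0.30 ± 0.14 (adjusted p = 0.148) and Ctbp1 of 0.098 ± 0.15 (adjusted p = 0.805). Whether the Ctbp2 and Ctbp1 differences differ from each other was not tested. In that fit the difference between numbers was larger in size than that between treatments for 5 members (Ctbp1, Ctbp2, Mta1, Mta3 and Rbbp7) and smaller for the other 5, with Mta3 nearly equal in both. No label says what the number marks. Marker sums also followed it in both groups: endothelial markers had 46.7 CPM with dTAG-13 and 39.4 CPM untreated in number 2, against 129.7 and 154 CPM in number 1. Gut endoderm markers had 73.5 CPM with dTAG-13 and 54.4 CPM untreated in number 2, against 93.0 and 100.3 CPM in number 1. The sum of somite markers was also lower in number 2 of both groups, and the sums of neural tube, neuron, epithelial and pluripotency markers were higher. Not every gene followed its sum: for example, Tcf15 was higher in number 2 of both groups and Nkx6-1 was lower. Krt8 and Krt18 were lower in number 2 untreated, and Pecam1 and Foxa2 were higher in number 2 with dTAG-13. The part of these markers in the Ctbp2 difference was not tested.

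**Figure D5:**
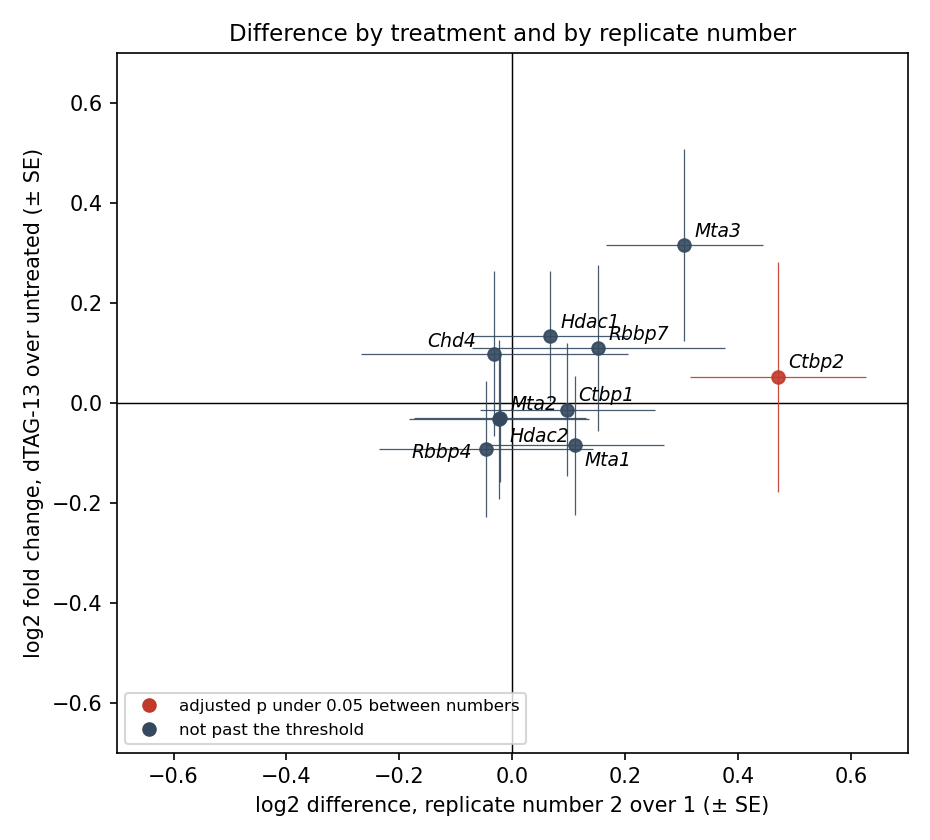
Log2 difference of replicate number 2 over 1 (x axis) and log2 fold change of dTAG-13 over untreated (y axis) for each member, with SE bars from edgeR. The x values come from the fit with group and number as terms, and the y values from the fit with the group alone. Ctbp2 (red) is the member past an adjusted p of 0.05 between numbers, at 0.47, and Mta3 has the largest treatment difference, at 0.32, which did not pass.

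The other NuRD subunits were described in the same way. Of 8 listed, 7 were tested and 0 passed in either direction, with a median log2 fold change of 0.086. Mbd3 encodes a subunit needed for embryonic stem cells to leave pluripotency. It had 97.4 and 95.9 CPM with dTAG-13, against 89.3 and 90.5 CPM untreated, and these groups did not overlap (log2 fold change 0.10 ± 0.13, adjusted p = 1.00 in edgeR). Mbd2, which binds methylated DNA and replaces MBD3 in the complex, had 24.0 and 23.5 CPM with dTAG-13, against 23.7 and 15.5 CPM untreated. The scaffold Gatad2a had 247 and 286 CPM with dTAG-13, against 211 and 264 CPM untreated, and its paralog Gatad2b 217 and 205 CPM with dTAG-13, against 199.99 and 218 CPM untreated. Cdk2ap1, a small subunit, had a log2 fold change of -0.076 ± 0.21. Of these 5, Mbd3 alone had groups that did not overlap, where 14.4% of all genes lay wholly above untreated and 11.9% wholly below.

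The alternative ATPases of NuRD varied more than Chd4. Chd3 had 197 and 345 CPM with dTAG-13, against 178 and 334 CPM untreated, which followed the replicate number in both groups (0.86 ± 0.16 higher in number 2, adjusted p = 5.98e-06 in edgeR) and gave a wide interval for the treatment, a log2 value of -1.05 to 1.22. Chd5, known in neurons and testis, was scarce, at 3.84 and 3.48 CPM with dTAG-13, against 4.82 and 6.14 CPM untreated. Both dTAG-13 libraries were below the untreated ones, a log2 fold change of -0.57 ± 0.34 that did not pass (unadjusted p = 0.140, adjusted p = 1.00 in edgeR). Cdk2ap2 had 1 to 4 counts per library and was not tested.

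Genes of neighbouring complexes gave no call for the treatment either. Over the 6 lists, which held 57 genes beside the members and the ZEB factors, 55 were tested, 0 were called, 0 had an unadjusted p under 0.05, and DESeq2 called 0, with no adjusted p given for Zfpm2 and Bcl11a. Of the 55, 50 had an interval within 2-fold, the others being Chd3, Chd5, Zfpm1, Zfpm2 and Bcl11a. Between replicate numbers 7 of the 55 were called, beside 12.8% of all genes, among them Zfp516 and Phf21a of the CtBP complex. Of 12 CtBP complex proteins 0 passed, with a median log2 fold change of -0.018; the zinc finger protein gene Zfp217 had 132 and 113 CPM with dTAG-13, against 109 and 103 CPM untreated, and Ehmt1, a histone H3 lysine methyltransferase, had 175 and 164 CPM with dTAG-13, against 181 and 183 CPM untreated. Neither passed, although in each the groups did not overlap. Of the 12, 2 lay wholly above untreated and 1 wholly below, where 14.4% and 11.9% of all genes did. Of 13 SIN3 complex genes 0 passed (median 0.041); Sap30 and Brms1l had log2 fold changes of -0.16 ± 0.18 and -0.18 ± 0.21. Of 6 NCoR complex genes 0 passed (median 0.0092), with Tbl1x at 0.053 ± 0.15 and the deacetylase Hdac3 at -0.028 ± 0.13. Of 10 genes of other complexes that hold RBBP4 or RBBP7, 0 passed (median -0.040), with the Polycomb subunits Eed at -0.24 ± 0.19 and Ezh2, the methyltransferase, at -0.18 ± 0.15.

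Zinc finger factors that bind NuRD through an N-terminal motif like that of ZEB2 were also listed. Of 8, 7 were tested and 0 passed for the treatment, with a median log2 fold change of 0.034. The median was -0.036 with all libraries and no filter on low counts, and -0.28 to -0.039 with any single library left out. Between replicate numbers 4 (Sall1, Sall3, Zfpm1 and Zfpm2) were called, where 12.8% of all genes were. Sall2 had 80.8 and 66.7 CPM with dTAG-13, against 87.2 and 108 CPM untreated. Both dTAG-13 libraries were below both untreated ones, and its log2 fold change of -0.40 ± 0.17 had an unadjusted p of 0.0538 and an adjusted p of 1.00 in edgeR. Zfpm2, a GATA cofactor, had 3.07 and 1.36 CPM with dTAG-13, against 4.97 and 2.31 CPM untreated. The tagged gene itself, Zeb2, had 103 and 108 CPM of mRNA with dTAG-13, against 98.3 and 164 CPM untreated, a log2 fold change of -0.31 ± 0.25 (adjusted p = 1.00 in edgeR). Its sign rested on untreated replicate 2: without that library it was 0.10, and without untreated replicate 1 it was -0.65. dTAG-13 acts on the protein, so the Zeb2 level does not check the labels, and the amounts of the CtBP and NuRD proteins were not measured here either. The paralog Zeb1, which binds the same corepressors, had 59.9 and 26.1 CPM with dTAG-13, against 84.6 and 56.0 CPM untreated (log2 fold change -0.71 ± 0.46, adjusted p = 1.00 in edgeR). It was lower with dTAG-13 in both replicate numbers, by log2 differences of -0.50 and -1.10. Between replicate numbers both ZEB factors were called, in opposite directions, where 12.8% of all genes were called. Zeb2 was higher in number 2 by 0.41 ± 0.14 on the log2 scale (adjusted p = 0.0342 in edgeR). For Zeb1 the log2 difference of number 2 over 1 was -0.89 ± 0.14 (adjusted p = 3.33e-08 in edgeR).

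Genes most like Ctbp1, Ctbp2 and Chd4 over the 4 libraries were sought by the mean absolute difference of log2 CPM after each gene was centred on its own mean. Agk, Psmd4 and Thumpd3 were nearest to Ctbp1 (0.0071, 0.0082 and 0.0088). Aldh3a2, Paqr3 and Ppp1r10 were nearest to Ctbp2 (0.018, 0.022 and 0.023), and Crkl, Arl6ip5 and Psme4 were nearest to Chd4 (0.0063, 0.0073 and 0.0084). With 4 libraries and 13602 genes, values this close describe these libraries only.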

How the data were processed

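Libraries were prepared from 250 to 500 ng of RNA depleted of ribosomal RNA, per the labels' protocols. The submitters' processing notes name the builds mm10 and GRCm38.p6, and the tools HTSeq 0.12.4, STAR 2.7.6a, fastp 0.20.1 and DESeq2 1.34.0, with no roles. The sources used here give no annotation, strand setting or read length. The authors deposited raw counts of reads per gene symbol, 1 table per library. Lines naming no gene held 24.1% to 35.7% (outside genes) and 0.209% to 0.240% (ambiguous) of reads and were left out. Replicates of a group were not duplicates (chi-square per degree of freedom 32.7 for dTAG-13 and 38.4 for untreated).

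The test was edgeR 4.0.16 in R 4.3.3: filterByExpr (minimum count 10, total 15), TMM, robust glmQLFit with the group as the only term, two-sided glmQLFTest, Benjamini-Hochberg over 13602 genes, threshold 0.05. It was checked on simulated counts with a smaller spread between libraries than the common one fitted here, and with no effect of replicate number. That check therefore does not show how well the intervals cover in these data. SE is the absolute log2 fold change over the square root of F, and 95% intervals use the test's degrees of freedom. CPM uses TMM library sizes; log2 differences within numbers add a prior count of 2. DESeq2 1.42.0 was an alternative. Exon and coding lengths came from GENCODE M21 (GRCm38), matched for 23703 of 24831 symbols, and gene coordinates from RefSeq. Named genes were all members, other NuRD subunits and ZEB factors, and the 2 of smallest p in each other list; genes outside this rule are exceptions, genes called between numbers and overlapping genes or copies, named after their values were seen. Members and lists were chosen with earlier results of these data known. Intervals on counts cover counting error alone, as PCR copies are not separate molecules.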

Additional observations from a re-analysis of the deposited data

How the results depend on the processing

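Of the members, 0 were called by DESeq2, with the replicate block, the legacy fit, upper quartile or RLE factors, a minimum of 50 counts or no filter, or without any single library. All 10 intervals stayed within 2-fold except without untreated replicate 2, where 9 did and the upper bound of Mta3 was 1.05 on the log2 scale. Over all genes, 40 were called by DESeq2 and 645 with the replicate number as a block, against 0; the cause was not tested. Same-numbered libraries deviated together (correlation across genes of 0.63), but 2 pairs with no label for the number do not show pairing. The block changed no call among the members, although the unadjusted p of Mta3 in edgeR went from 0.148 to 0.0332 (adjusted p = 0.329). Of the other named genes the block changed the call of Zeb1 (log2 fold change -0.79, adjusted p = 4.39e-06 in edgeR). Between numbers, the single call (Ctbp2) fell to 0 with no filter, and why was not tested.

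Leaving out single libraries turned the sign of some small differences. The log2 fold change ran from -0.088 to 0.037 for Ctbp1, -0.24 to 0.28 for Ctbp2, -0.023 to 0.19 for Chd4, -0.19 to 0.016 for Mta1, -0.17 to 0.079 for Hdac2, -0.052 to 0.27 for Rbbp7 and -0.65 to 0.10 for Zeb2. The median ran from -0.062 to 0.13 over the members, -0.059 to 0.091 over other NuRD subunits, -0.038 to 0.066 over CtBP complex proteins, -0.011 to 0.063 over SIN3, -0.083 to 0.078 over NCoR, -0.077 to 0.018 over other complexes with RBBP4 or RBBP7 and -0.28 to -0.039 over the zinc finger factors. The filter on low counts was run again in each of these fits, so the genes in a list could differ as well. With all libraries and no filter, the median of the zinc finger factors was -0.036. The cause was not tested. Prior counts of 0.5 and 5 changed no sign within numbers. With 2 libraries a group, changes inside the intervals given could not be seen.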
